A study of Homo sapiens with 21 samples.

Results

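The genes described here encode the core and linker histones, the proteins around which DNA is wound into nucleosomes. They were chosen by symbol: every row of the count tables that maps to a protein-coding gene named H1-, H2AC, H2BC, H3C or H4C, or by the older HIST1H, HIST2H or HIST3H names, and the variant genes H2AX, H2AZ1, H2AZ2, H3-3A and H3-3B. The rule found 80 of 60668 genes, and 24 further rows with such names were left out as not protein-coding. Of the 80, 67 are replication-dependent genes, with 5 encoding H1, 16 H2A, 18 H2B, 13 H3 and 15 H4. A further 7 are replacement genes, such as H2AX, H2AZ1 and H3-3B, and 6 are germline genes. Most of the replication-dependent genes, 52 of 67, lie in the HIST1 cluster on chromosome 6, and 11 lie in the HIST2 cluster on chromosome 1.

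The data are RNA-seq counts for 21 libraries, in 7 groups of 3, all made from HCC1806, an established cell line derived from a triple-negative tumour of the human breast. The line was grown as an adherent culture in medium with 15% fetal bovine serum and harvested near confluence. The first table held the controls 3XCTL, cells with the genotype 3xSR (titled 3XSR, labelled for joint overexpression of SRSF2, SRSF3 and SRSF7) and MYC-OE, overexpressing the transcription factor MYC. The second table held 1xCtrl, a control with a single plasmid, and 1xSRSF2, 1xSRSF3 and 1xSRSF7, each labelled for overexpression of the splicing factor in its name. For MYC-OE the control used is 3XCTL, which shares its naming and table but may carry other vectors. Neither the promoter behind each transgene nor the number of clones is given in the sources used here. The labels do not say that replicates were separate cultures. The adjusted p-values therefore weigh a difference against the spread between libraries, which may be technical.

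Replication-dependent histone genes are read mainly during S phase, when new DNA has to be packed. Their messages have no introns and usually no poly(A) tail: the 3′ end is a short stem-loop that is bound by SLBP and cut with the help of the U7 small nuclear ribonucleoprotein. Some of these genes also give longer, polyadenylated transcripts that run past the stem-loop, among others in cells that leave the cycle. Replacement genes have introns or poly(A) tails, are read throughout the cycle, and supply variants such as H3.3 and H2A.Z. The libraries were selected on poly(A), so the counts cover mainly the polyadenylated share of each gene's RNA, and the stem-loop messages themselves are measured poorly here.

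The inverted repeat shared by the most members' transcripts was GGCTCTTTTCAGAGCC, present in 17 members, followed by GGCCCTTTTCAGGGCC and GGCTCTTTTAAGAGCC in 5 each. A match to the first with at most 2 mismatches, on the transcript's own strand, was found in the annotated transcripts of 29 of the 78 members in GENCODE release 29, and in 102 of 19922 protein-coding genes (0.512%). In 20 replication-dependent members an annotated transcript ran at least 100 bases past the loop. These are called read-through members below, a grouping made after the data were seen. The stem-loops of members that the results turn on are shown because they mark where the short message would end. Capitals mark the matched loop, letters before and after it are flanks, and each line reads 5′ to 3′ along the transcript.

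H2AC6: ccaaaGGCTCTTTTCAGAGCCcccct
H2BC21: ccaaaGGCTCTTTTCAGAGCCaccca
H2AC25: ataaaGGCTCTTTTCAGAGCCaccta
H2BC4: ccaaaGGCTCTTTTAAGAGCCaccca
H3C10: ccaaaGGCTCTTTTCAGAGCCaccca
H4C8: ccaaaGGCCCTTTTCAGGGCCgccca
H4C5: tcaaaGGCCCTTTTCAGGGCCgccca
H4C16: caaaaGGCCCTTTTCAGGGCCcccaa

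The annotated transcript of H2BC21 ran 1729 bases past the loop, that of H3C10 769, that of H4C5 1022, that of H2AC25 390 and that of H2BC4 116. H2AC6 transcripts ended 1114 and 1128 bases past it. For H4C8 the annotation holds ends from 18 to 1655 bases past the loop, and for H4C16 from 169 to 1510. The H4C8, H4C5 and H4C16 loops are the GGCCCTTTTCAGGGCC form and that of H2BC4 the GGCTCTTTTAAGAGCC form.

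Promoters are shown for 3 genes with clear changes: H2AC6 (chr6:26123922-26124221, plus strand), H2BC21 (chr1:149886633-149886932, minus strand) and H4C8 (chr6:26285485-26285784, minus strand), from RefSeq on GRCh38.p14. Capitals mark CCAAT, the octamer ATTTGCAT and TATAAA on either strand. The H2AC6 window also serves the divergent H2BC4 gene, whose start lies 218 bases away.

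H2AC6: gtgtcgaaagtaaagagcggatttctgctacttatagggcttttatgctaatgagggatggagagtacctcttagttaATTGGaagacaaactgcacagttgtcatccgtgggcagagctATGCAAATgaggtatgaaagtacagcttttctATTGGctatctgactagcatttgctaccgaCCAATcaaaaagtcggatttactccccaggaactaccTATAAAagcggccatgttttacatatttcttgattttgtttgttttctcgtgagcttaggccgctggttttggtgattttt
H2BC21: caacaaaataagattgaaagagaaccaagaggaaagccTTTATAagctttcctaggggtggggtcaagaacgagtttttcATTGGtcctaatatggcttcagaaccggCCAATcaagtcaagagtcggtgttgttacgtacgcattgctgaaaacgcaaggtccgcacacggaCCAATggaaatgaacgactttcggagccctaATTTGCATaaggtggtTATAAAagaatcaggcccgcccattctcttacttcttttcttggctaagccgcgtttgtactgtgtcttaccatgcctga
H4C8: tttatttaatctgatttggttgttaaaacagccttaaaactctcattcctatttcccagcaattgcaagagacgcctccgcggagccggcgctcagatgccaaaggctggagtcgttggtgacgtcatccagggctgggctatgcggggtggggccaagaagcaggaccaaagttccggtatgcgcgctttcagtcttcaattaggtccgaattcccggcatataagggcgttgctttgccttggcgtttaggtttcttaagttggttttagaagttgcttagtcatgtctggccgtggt

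Of 81 promoter windows matched to 73 members, 68 held CCAAT, 28 the octamer and 50 TATAAA. Among all 35116 windows the shares were 34.6%, 1.77% and 11.5%. Among windows of replication-dependent members only, the octamer stood in 10 of 15 H2A and 14 of 19 H2B windows. It stood in 1 of 13 H3 windows, and in no H1 or H4 window of 5 and 13. Among the same windows CCAAT stood in 5 of 5 H1, 15 of 15 H2A, 19 of 19 H2B and 13 of 13 H3 windows, and in 3 of 13 H4 windows. The H4C8 window held none of these letters, and a match or its absence says nothing of a factor's binding.

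Total counts lay between 143 and 303 mega-counts per library, and members took 0.0995 to 0.137% of them. A gene with 3 counts, taken as the floor, stands at 0.00947 to 0.021 CPM (counts per mega-count of the scaled library, the level used throughout). These limits cover counting error only. Epithelial and basal markers summed to 5040 to 7090 CPM with KRT5 at 1600 to 2650 CPM, fibroblast markers to 15.3 to 49.7 CPM and blood cell markers to 6.41 to 36.7 CPM. Of the receptors that define other breast cancer classes, ERBB2 ranged from 99.6 to 184 CPM, ESR1 from 6.49 to 11.5 CPM and PGR from 0 to 1.46 CPM. SRSF2 was not higher in the groups labelled for it: its log2 change was −0.06 in 3XSR (adjusted p = 0.389) and −0.16 in 1xSRSF2 (adjusted p = 0.098). SRSF3 rose by 0.31 in 3XSR and 0.49 in 1xSRSF3, SRSF7 by 0.44 in 3XSR and 0.26 in 1xSRSF7, and MYC by 0.90 in MYC-OE. MYC also rose by 0.75 in 3XSR. The groups are therefore named as the libraries labelled 3XSR and labelled 1xSRSF2 below. A list of 32 RNAs without a poly(A) tail, such as RMRP, summed to 97.6 CPM in 1xCtrl replicate 2 against 9.13 and 8.59 CPM in replicates 1 and 3. In 1xSRSF3 it summed to 141, 47.6 and 17.6 CPM, in 3XCTL to 43.8, 16.8 and 38.9 CPM, and elsewhere to 9.86 to 52.6 CPM. For members of the second table the value without 1xCtrl replicate 2 is given where it changes a call or the value clearly. The gene lists were not counted without it.

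The replacement genes carried most of the histone RNA in these libraries. Over the 21 libraries H3-3B averaged 349 CPM, H2AZ1 293, H3-3A 165, H2AZ2 114 and H2AX 32.7 CPM. The highest replication-dependent gene was H2AC6 at 14.5 CPM, before H2BC12 at 9.79 and H1-2 at 9.21 CPM. H3C6 followed at 7.78 CPM and H2BC9 at 7.37 CPM. Per kilobase of annotated exon, H2AZ1 stood at 127 CPM, H3-3B at 56.8 and H3-3A at 52.4. On that scale H2BC12 stood at 25.7, H2AX at 20.3 and H2AC6 at 8.67. These values rest on the annotated exon length, which was 381 bases for H2BC12, 1668 for H2AC6 and 6134 for H3-3B. The annotation used for counting is not given in the sources used here, so the values do not rank the genes. Of the 67 replication-dependent members, 23 averaged at least 1 CPM and 44 less.

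Not every member could be tested. After the filter on low counts 59 members were tested in the first table and 66 in the second, and 14 in neither. Of these 14, 5 are germline genes, and 4 of those had no count in any library (H1-7, H2AC1, H2BC1 and H3-4). The other 9 are replication-dependent genes whose highest count in any library was 32 (H3C11). A gene can pass the filter through the group in which it is high, so the counts below describe the tested members and do not support a statement about all 80.

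In the libraries labelled 3XSR, most replication-dependent members that rose against 3XCTL were H2B genes (6 of 16 tested) and H4 genes (5 of 10). Only 1 of 11 tested H2A genes and 1 of 10 tested H3 genes rose. Of 59 tested members 14 rose (23.7%) and 4 fell, beside 15.3% of all 23160 tested genes higher and 13.7% lower. The 13 replication-dependent members that rose all averaged at least 1 CPM. The median log2 change was 0.25 over the tested members and −0.004 over all genes. In these bulk cultures a larger share of cells that make histone RNA and more of it per cell cannot be told apart.

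MYC-OE showed 21 tested members higher than 3XCTL (35.6%) and 1 lower, beside 18.0% of all tested genes higher and 17.3% lower (35.3% in either direction). The median log2 change was 0.41, against −0.005 over all genes. Of the 21, 19 were replication-dependent, 7 of them H2B genes, 5 H2A and 5 H4.

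In 1xSRSF3 22 of 66 tested members rose (33.3%) and none fell in edgeR's test, beside 15.0% of 24362 tested genes higher and 14.1% lower. At an unadjusted p under 0.05 there were 27 higher and 0 lower, and DESeq2 called 24 higher and 0 lower. The median was 0.56 over tested members and −0.025 over all genes. Of the 22, H1-2 and H3C8 overlapped in CPM between 1xSRSF3 and 1xCtrl. The count was 14 without 1xCtrl replicate 1, 13 without 1xSRSF3 replicate 3, 28 without 1xCtrl replicate 2, and 22 without both 1xCtrl replicate 2 and 1xSRSF3 replicate 1.

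The libraries labelled 1xSRSF2 had 9 of 66 tested members higher (13.6%) and 1 lower, beside 11.6% of all tested genes higher and 11.9% lower, so the share higher was close to the background. The 10 calls became 5 without 1xCtrl replicate 1, 16 without 1xCtrl replicate 2, and 4 without any 1 of the 3 libraries labelled 1xSRSF2. In 1xSRSF7 6 members rose (9.09%) and 1 fell, against a background of 9.03% higher and 8.26% lower, again close to it. Here 4 of the 6 were replacement genes. The 7 calls became 4 without 1xCtrl replicate 1 or 3, 3 without 1xSRSF7 replicate 3, and 15 without 1xCtrl replicate 2.

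**Figure D1:**
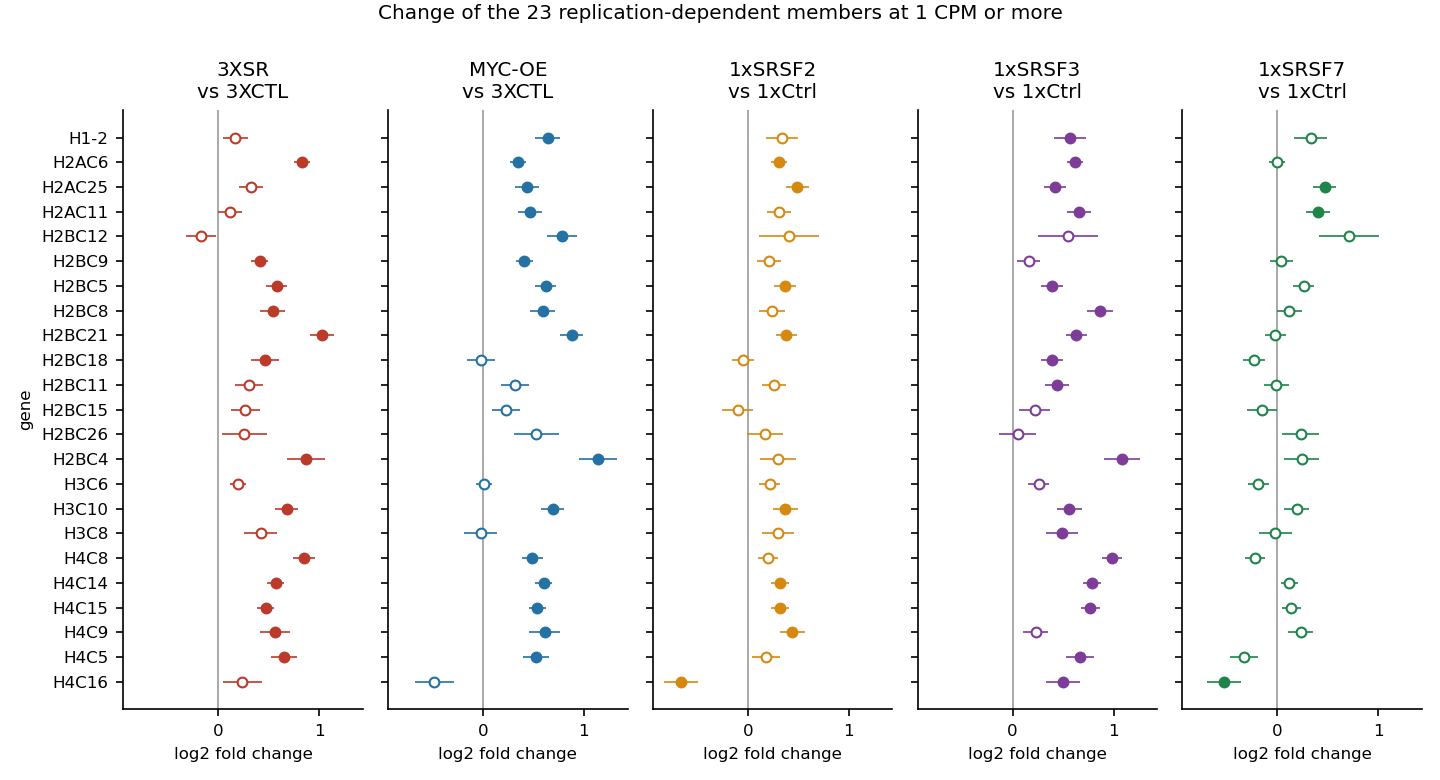
Log2 fold change (x axis, point) with its SE (bar) of the 23 replication-dependent members that averaged at least 1 CPM (y axis), in each of the 5 comparisons with a control. Filled points have an adjusted p under 0.05 in edgeR's quasi-likelihood test and open points do not. Filled points to the right of 0 number 13 in 3XSR, 16 in MYC-OE, 8 in 1xSRSF2, 17 in 1xSRSF3 and 2 in 1xSRSF7. In the same order 15.3%, 18.0%, 11.6%, 15.0% and 9.03% of all tested genes, at any level, were higher.

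Among the H2A genes, H2AC6 (HIST1H2AC, chr6:26124145-26139116, plus strand) showed the clearest steps between groups. It stood at 9.35, 10.5 and 9.55 CPM in 3XCTL, at 19, 16.2 and 17.0 CPM in the libraries labelled 3XSR, and at 12.5, 12.7 and 12.2 CPM in MYC-OE. In the second table it stood at 13.4, 11.6 and 13.6 CPM in 1xCtrl, 16, 15.3 and 16.8 CPM in the libraries labelled 1xSRSF2, 21.1, 18.6 and 19.7 CPM in 1xSRSF3, and 12.4, 13.1 and 13.1 CPM in 1xSRSF7. All libraries of the first 4 overexpressing groups lay above all libraries of their control, while 1xSRSF7 overlapped its control. The log2 change was 0.83 ± 0.077 (SE) in 3XSR (adjusted p = 9.75e-06), 0.35 ± 0.077 in MYC-OE (adjusted p = 0.00383), 0.31 ± 0.080 in 1xSRSF2 (adjusted p = 0.0115) and 0.62 ± 0.080 in 1xSRSF3 (adjusted p = 8.74e-05). In 1xSRSF7 it was 0.00 ± 0.079 (adjusted p = 0.996). The call in 1xSRSF2 was lost without 1xSRSF2 replicate 3 (log2 change 0.24, adjusted p = 0.0505).

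H2AC25 (HIST3H2A, chr1:228456979-228457873, minus strand) rose in all 3 single-factor groups. Its level was 1.98, 2.34 and 2.47 CPM in 1xCtrl and 3.04, 3.02 and 3.51 CPM in the libraries labelled 1xSRSF2. In 1xSRSF3 it was 3.03, 3.07 and 2.96 CPM, and in 1xSRSF7 2.97, 3.22 and 3.23 CPM. None of these 9 libraries fell to the control range, and the 3 groups overlapped each other. The log2 changes were 0.49 ± 0.11 (adjusted p = 0.00671), 0.42 ± 0.11 (adjusted p = 0.0139) and 0.47 ± 0.11 (adjusted p = 0.0125). In the first table it rose by 0.44 in MYC-OE (adjusted p = 0.0119), and was 0.33 higher in 3XSR without passing the test (adjusted p = 0.0588). Each of these calls was lost without at least 1 library: 1xSRSF2 replicate 3 (adjusted p = 0.0503), 1xCtrl replicate 1 (0.26 in 1xSRSF3 with adjusted p = 0.103, 0.34 in 1xSRSF7 with adjusted p = 0.0613), each 1xSRSF3 library (adjusted p of 0.0591 to 0.0711), 1xSRSF7 replicate 2 or 3 (adjusted p = 0.0506 and 0.0576), or MYC-OE replicate 3 (adjusted p = 0.0539).

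By family, tested replication-dependent H2A genes that rose numbered 1 of 11 in 3XSR, 5 of 11 in MYC-OE, and 2, 4 and 2 of 12 in 1xSRSF2, 1xSRSF3 and 1xSRSF7. Counts by family here and below can be read against the share of all tested genes that rose. That share was 15.3% in 3XSR, 18.0% in MYC-OE, 11.6% in 1xSRSF2, 15.0% in 1xSRSF3 and 9.03% in 1xSRSF7. H2AC11 rose by 0.47 in MYC-OE (adjusted p = 0.00878), 0.66 in 1xSRSF3 (adjusted p = 0.00102) and 0.40 in 1xSRSF7 (adjusted p = 0.0335). The last call was lost without 1xCtrl replicate 1 or 3 or any 1xSRSF7 library, with 0.28 without 1xCtrl replicate 3 (adjusted p = 0.165). The near-identical copies H2AC18 and H2AC19, between which reads can be split, rose in MYC-OE by 1.02 and 0.99 from levels of 0.13 to 0.299 CPM in 3XCTL. Those calls were lost without 3XCTL replicate 2 or 3 or MYC-OE replicate 1 or 3, with adjusted p up to 0.0854 and 0.0876. H2AC8 rose by 1.04 in 1xSRSF3 (adjusted p = 0.0203), and the call was lost without 1xCtrl replicate 1 or 3 or 1xSRSF3 replicate 1 or 3 (adjusted p up to 0.151). These last 4 genes were named after their values were seen. Summed over the 16 H2A genes, the 3XSR libraries held 1.55 times the CPM of 3XCTL, MYC-OE 1.32 times, 1xSRSF2 1.26, 1xSRSF3 1.54 and 1xSRSF7 1.10 times the CPM of its control. No group overlapped its control in this sum, of which H2AC6 is the largest part.

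An H2B gene had the largest rise among the members called in 3XSR. H2BC21 (HIST2H2BE, chr1:149884459-149886652, minus strand), a gene known for giving polyadenylated transcripts in cells outside S phase, stood at 1.80, 1.55 and 1.70 CPM in 3XCTL. It stood at 3.28, 3.72 and 3.31 CPM in the libraries labelled 3XSR and at 3.21, 3.29 and 2.78 CPM in MYC-OE. Both groups lay above every control library. The log2 change was 1.03 ± 0.12 in 3XSR (adjusted p = 4.28e-05) and 0.88 ± 0.12 in MYC-OE (adjusted p = 9.95e-05).

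In the second table H2BC21 was at 3.05, 3.23 and 2.94 CPM in 1xCtrl, 3.83, 4.30 and 3.88 CPM in the libraries labelled 1xSRSF2, 4.98, 4.95 and 4.36 CPM in 1xSRSF3, and 2.90, 2.91 and 3.30 CPM in 1xSRSF7. The libraries of 1xSRSF3, 1xSRSF2 and the control did not overlap each other, in that order from the top, and 1xSRSF7 overlapped the control. The direct test of 1xSRSF2 against 1xSRSF3 did not pass (−0.25, adjusted p = 0.095). H2BC21 rose by 0.63 ± 0.10 in 1xSRSF3 (adjusted p = 0.00053) and by 0.38 ± 0.10 in 1xSRSF2 (adjusted p = 0.017), and changed by −0.02 ± 0.10 in 1xSRSF7 (adjusted p = 0.94). The 1xSRSF2 call was lost without 1xCtrl replicate 1 or 3 or any library labelled 1xSRSF2 (0.29 without 1xSRSF2 replicate 2, adjusted p = 0.123).

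H2BC4 (HIST1H2BC, chr6:26114873-26123926, minus strand), the divergent neighbour of H2AC6, more than doubled in 2 groups from a low level. It was at 0.585, 0.631 and 0.583 CPM in 3XCTL, 1.26, 1.23 and 0.789 CPM in the libraries labelled 3XSR, and 1.38, 1.27 and 1.31 CPM in MYC-OE. The MYC-OE libraries lay together and the 3XSR libraries were spread, all above the control. The fold was 1.83 in 3XSR (adjusted p = 0.00392) and 2.20 in MYC-OE (adjusted p = 0.000477). In 1xSRSF3 H2BC4 was at 2.00, 1.76 and 2.08 CPM against 0.799, 1.12 and 0.837 CPM in 1xCtrl, a 2.12-fold rise (adjusted p = 0.000518). In the other 2 groups of that table it overlapped the control.

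H2BC8 (HIST1H2BG) rose in the same 3 groups, by 0.54 ± 0.12 in 3XSR (adjusted p = 0.0061), 0.59 ± 0.12 in MYC-OE (adjusted p = 0.00283) and 0.87 ± 0.13 in 1xSRSF3 (adjusted p = 0.000236). H2BC5 (HIST1H2BD) rose by 0.58 in 3XSR, 0.62 in MYC-OE, 0.37 in 1xSRSF2 and 0.39 in 1xSRSF3. Without 1xCtrl replicate 1 its changes in 1xSRSF2 and 1xSRSF3 were 0.26 and 0.28 (adjusted p = 0.139 and 0.105). The first call was also lost without 1xSRSF2 replicate 1 or 2 (adjusted p = 0.124 and 0.13), and the second without 1xSRSF3 replicate 1 or 3 (adjusted p = 0.0991 and 0.0883). H2BC9 rose by 0.41 in both groups of the first table (adjusted p = 0.00406 and 0.00288) and in no group of the second. H2BC18, which overlaps FCGR1A, rose by 0.46 in 3XSR and 0.39 in 1xSRSF3, with each call lost without several single libraries (adjusted p up to 0.114 without 3XSR replicate 1 and 0.0939 without 1xSRSF3 replicate 3). The other libraries behind those losses were 3XCTL replicates 1 and 3, 3XSR replicate 3, 1xCtrl replicate 1 and 1xSRSF3 replicate 1.

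H2BC12 (HIST1H2BK, chr6:27146418-27146798, minus strand) set MYC-OE apart from 3XSR. It was at 10, 5.95 and 8.30 CPM in 3XCTL, 7.07, 7.58 and 6.92 CPM in the libraries labelled 3XSR, and 13.8, 14 and 13.7 CPM in MYC-OE. It rose by 0.78 ± 0.15 in MYC-OE (adjusted p = 0.00191), while in 3XSR it lay within the control range (−0.17 ± 0.15, adjusted p = 0.435). Without 3XCTL replicate 2, however, it was lower in 3XSR by the test (−0.35, adjusted p = 0.00532). The direct test of MYC-OE against 3XSR gave 0.95 (adjusted p = 0.000679). In 1xCtrl H2BC12 was at 5.85, 11.4 and 4.47 CPM, so that replicate 2 stood far above the others. Against all 3 controls no single-factor group passed the test (0.41, 0.55 and 0.71, adjusted p = 0.368, 0.205 and 0.133). Without 1xCtrl replicate 2 the changes were 0.90, 1.03 and 1.22 and all passed (adjusted p = 0.00198, 0.000744 and 0.000422). With all libraries and the GC trend removed they were 0.52, 0.70 and 0.68 and also passed (adjusted p = 0.00581, 0.000594 and 0.00131). Whether the tailless RNA that is high in this library has a part in its H2BC12 level was not tested.

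Tested H2B genes that rose numbered 6 of 16 in 3XSR, 7 of 16 in MYC-OE, and 2, 6 and 0 of 18 in 1xSRSF2, 1xSRSF3 and 1xSRSF7. None fell. Summed over the 18 H2B genes the ratio to the control was 1.27, 1.49, 1.19, 1.38 and 1.15 in the same order of groups, with overlap only in 1xSRSF7.

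**Figure D2:**
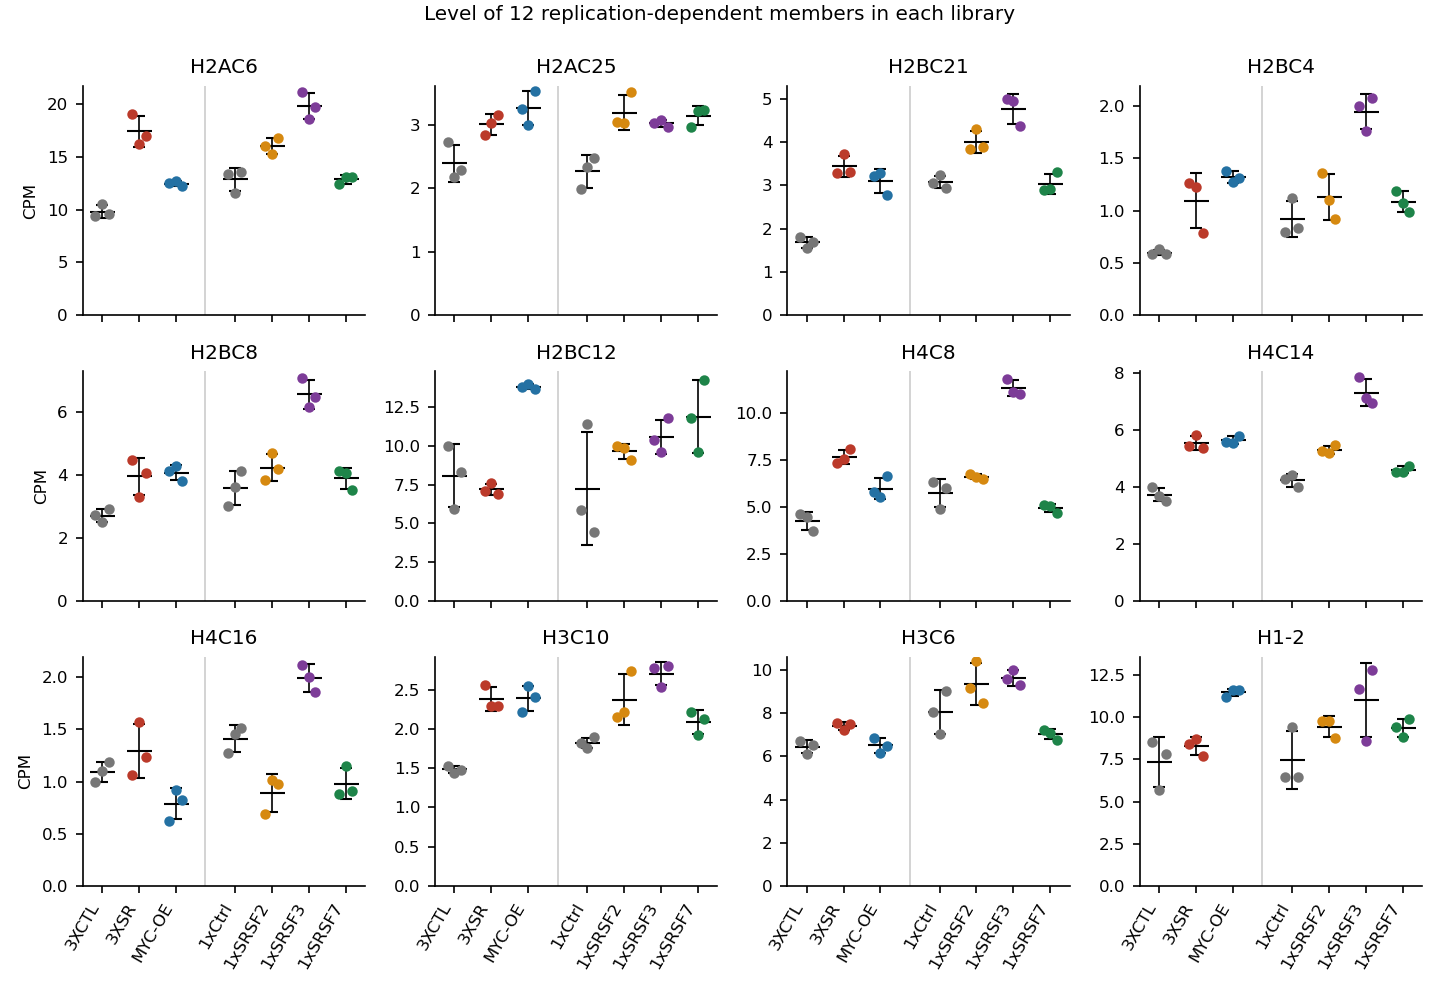
Level in CPM (y axis, from 0) of 12 replication-dependent members in each library (points) of the 7 groups (x axis), with the mean (dash) and SD (bar) over 3 libraries. The vertical line parts the 2 tables, whose levels were scaled separately. H2AC6, H2BC21, H4C8 and H4C14 lie above 3XCTL in 3XSR and MYC-OE and highest of the second table in 1xSRSF3, and H2BC12 shows the high 1xCtrl replicate 2 at 11.4 CPM.

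Nearly all H4 genes encode the same protein, and H4C8 had the smallest adjusted p of the family in 1xSRSF3. H4C8 (HIST1H4H, chr6:26277609-26285638, minus strand) stood at 6.34, 4.88 and 5.98 CPM in 1xCtrl and at 11.8, 11.1 and 11 CPM in 1xSRSF3. It stood at 6.74, 6.58 and 6.47 CPM in the libraries labelled 1xSRSF2 and at 5.09, 5.01 and 4.68 CPM in 1xSRSF7. The 1xSRSF3 libraries lay far above all others, and the log2 change was 0.98 ± 0.099 (adjusted p = 1.34e-05). The changes in 1xSRSF2 (0.20 ± 0.099, adjusted p = 0.166) and 1xSRSF7 (−0.22 ± 0.099, adjusted p = 0.152) did not pass. The direct test of 1xSRSF3 against 1xSRSF7 gave 1.20 (adjusted p = 1.48e-06). In the first table H4C8 was at 4.62, 4.43 and 3.71 CPM in 3XCTL, 7.35, 7.53 and 8.07 CPM in the libraries labelled 3XSR, and 5.77, 5.52 and 6.61 CPM in MYC-OE. It rose by 0.85 ± 0.11 in 3XSR (adjusted p = 0.000108) and by 0.49 ± 0.11 in MYC-OE (adjusted p = 0.00349), and was lower in MYC-OE than in 3XSR by 0.36 on the log2 scale (adjusted p = 0.0203).

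H4C14 and H4C15 (HIST2H4A and HIST2H4B) are near-identical copies on chromosome 1, each overlapping an H3 gene on the other strand, so how reads divide between them is uncertain. H4C14 rose by 0.57 ± 0.087 in 3XSR (adjusted p = 0.000453), 0.60 ± 0.087 in MYC-OE (adjusted p = 0.000229), 0.32 ± 0.088 in 1xSRSF2 (adjusted p = 0.0164) and 0.79 ± 0.088 in 1xSRSF3 (adjusted p = 2.82e-05). H4C15 rose by 0.47, 0.54, 0.32 and 0.77 in the same groups. Both 1xSRSF2 calls were lost without 1xCtrl replicate 1 or 3 or any library labelled 1xSRSF2 (adjusted p up to 0.108 and 0.132), and held without 1xCtrl replicate 2. With the copies summed before the fit, 13 members were higher in 3XSR, 19 in MYC-OE, 8 in 1xSRSF2, 20 in 1xSRSF3 and 6 in 1xSRSF7.

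H4C5 (HIST1H4E, chr6:26204552-26206038, plus strand) rose by 0.65 ± 0.13 in 3XSR (adjusted p = 0.00261), 0.53 ± 0.13 in MYC-OE (adjusted p = 0.00651) and 0.67 ± 0.14 in 1xSRSF3 (adjusted p = 0.00283). In 1xSRSF7 its libraries stood at 1.85, 1.55 and 1.31 CPM, all under the 1.91 to 2.01 CPM of 1xCtrl, but the change of −0.33 did not pass (adjusted p = 0.128). H4C9 rose by 0.56 in 3XSR (adjusted p = 0.0143), 0.61 in MYC-OE (adjusted p = 0.00709) and 0.44 in 1xSRSF2 (adjusted p = 0.0211). The calls in 3XSR and 1xSRSF2 were lost without 3XSR replicate 1 (0.47, adjusted p = 0.0654), without 1xCtrl replicate 2 (0.35, adjusted p = 0.0562) and without 1xSRSF2 replicate 2 (0.36, adjusted p = 0.0729).

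H4C16 (HIST4H4, chr12:14767999-14771131, minus strand), a lone H4 gene outside the clusters, moved in opposite directions between single factors. It was at 1.27, 1.46 and 1.51 CPM in 1xCtrl, 0.687, 1.02 and 0.976 CPM in the libraries labelled 1xSRSF2, 2.12, 2.00 and 1.86 CPM in 1xSRSF3, and 0.879, 1.15 and 0.906 CPM in 1xSRSF7. The 1xSRSF3 libraries lay above the control and those of the other 2 groups below it. It fell by 0.66 ± 0.17 on the log2 scale in 1xSRSF2 (adjusted p = 0.013) and by 0.53 ± 0.17 in 1xSRSF7 (adjusted p = 0.0475), and rose by 0.50 ± 0.17 in 1xSRSF3 (adjusted p = 0.042). The direct test of 1xSRSF3 against 1xSRSF7 gave 1.03. The rise was lost without any 1 library of 1xCtrl or 1xSRSF3 (0.36 to 0.51, adjusted p of 0.0536 to 0.191). The fall in 1xSRSF7 was lost without 1xCtrl replicate 2 (−0.50, adjusted p = 0.0596) or 3 (−0.52, adjusted p = 0.0951), or without 1xSRSF7 replicate 1 (−0.49, adjusted p = 0.119) or 3 (−0.50, adjusted p = 0.134). The fall in 1xSRSF2 kept its call in every setting tried.

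H4C11 and H4C12 were the only replication-dependent members called lower in 3XSR, and both are scarce. H4C11 was at 0.589, 0.383 and 0.483 CPM in 3XCTL and 0.329, 0.274 and 0.286 CPM in the libraries labelled 3XSR. H4C12 was at 0.635, 0.394 and 0.528 CPM against 0.357, 0.314 and 0.314 CPM. Levels of these genes ran close together in each library, and whether reads were split between them was not tested. They were not among the copies summed before the fit, so their falls may be a single signal. The log2 changes were −0.71 ± 0.23 (adjusted p = 0.0389) and −0.66 ± 0.22 (adjusted p = 0.0429). Neither call held without 3XCTL replicate 1 or 3 or without any library labelled 3XSR (adjusted p up to 0.145 and 0.162), nor with the GC trend of each library removed (−0.46 and −0.37). They were named after their values were seen, since they average under 1 CPM. Of tested H4 genes 5 of 10 rose in 3XSR and 5 of 10 in MYC-OE, and 3, 5 and 0 of 13 rose in 1xSRSF2, 1xSRSF3 and 1xSRSF7. The summed H4 ratio was 1.46, 1.36, 1.14, 1.67 and 0.969 in that order, with overlap only in 1xSRSF7.

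Among the H3 genes, H3C10 (HIST1H3H), which encodes a replication-dependent H3, stood at 1.53, 1.44 and 1.48 CPM in 3XCTL, 2.56, 2.29 and 2.29 CPM in the libraries labelled 3XSR, and 2.22, 2.54 and 2.41 CPM in MYC-OE. The gap to the control was wider than the spread within any of these groups. The log2 change was 0.68 ± 0.11 in 3XSR (adjusted p = 0.000786) and 0.69 ± 0.11 in MYC-OE (adjusted p = 0.000532), and in the other table it was 0.56 ± 0.12 in 1xSRSF3 (adjusted p = 0.00374) and 0.37 ± 0.12 in 1xSRSF2 (adjusted p = 0.0436). The 1xSRSF2 call was lost without any 1 library of either group (0.21 without 1xSRSF2 replicate 3 with adjusted p = 0.247, and 0.34 without 1xCtrl replicate 2 with adjusted p = 0.0864). H3C6 (HIST1H3E), the highest H3 gene of this kind, passed the test in no comparison with a control (log2 changes from −0.19 to 0.26, adjusted p from 0.0778 to 0.931). It passed in 1xSRSF3 without 1xCtrl replicate 3 (0.31, adjusted p = 0.0344) and in 1xSRSF7 without 1xCtrl replicate 2 (−0.27, adjusted p = 0.0437).

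H3C14 and H3C15, near-identical copies that each overlap an H4 gene on the other strand, had the largest folds among the members called in 1xSRSF3. H3C14 was at 0.243, 0.217 and 0.237 CPM in 1xCtrl and 0.615, 0.437 and 0.564 CPM in 1xSRSF3, a 2.32-fold rise (adjusted p = 0.000998). H3C15 was 2.36-fold higher (adjusted p = 0.00398), and lost the call without both 1xCtrl replicate 2 and 1xSRSF3 replicate 1 (0.90, adjusted p = 0.0578). Whether reads of H4C14 and H4C15 were counted for these genes was not tested. They were named after their values were seen. Of tested H3 genes 1 of 10 rose in 3XSR, in MYC-OE and in 1xSRSF2, 4 of 10 in 1xSRSF3 and 0 of 10 in 1xSRSF7. The summed H3 ratio was 1.24, 1.12, 1.17, 1.30 and 0.914 in that order, with overlap only in 1xSRSF7. H3C8 was among the 4 (0.49, adjusted p = 0.037), overlapping its control, and lost its call without 1xCtrl replicate 1 or 2 or 1xSRSF3 replicate 2 or 3 (0.31 without the last, adjusted p = 0.212).

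Linker histone genes of the replication-dependent kind are carried here by H1-2 (HIST1H1C), the only 1 of 5 called in any comparison with a control. H1-2 was at 8.56, 5.68 and 7.83 CPM in 3XCTL, 8.44, 8.73 and 7.69 CPM in the libraries labelled 3XSR, and 11.2, 11.6 and 11.6 CPM in MYC-OE. MYC-OE lay above the others, which overlapped. It rose by 0.64 ± 0.13 in MYC-OE (adjusted p = 0.00184). In 1xSRSF3 it was at 11.7, 8.58 and 12.8 CPM against 6.43, 9.44 and 6.47 CPM in 1xCtrl, so the groups overlapped, and the rise of 0.57 ± 0.16 (adjusted p = 0.0184) became 0.76 without 1xCtrl replicate 2. It was 0.38 without 1xSRSF3 replicate 3 (adjusted p = 0.212), 0.47 without 1xSRSF3 replicate 1 (adjusted p = 0.168), 0.40 without 1xCtrl replicate 1 (adjusted p = 0.19) and 0.42 without 1xCtrl replicate 3 (adjusted p = 0.139), with no call in any of these. Without 1xCtrl replicate 2 it passed in 1xSRSF2 (0.54) and 1xSRSF7 (0.55), both at adjusted p = 0.0105. With the GC trend removed it passed in 3XSR (0.35, adjusted p = 0.00678) and 1xSRSF2 (0.34, adjusted p = 0.0458).

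Summed, the replacement genes were slightly lower in 3XSR (ratio 0.943), unlike the replication-dependent genes, and were higher in 1xSRSF2 and 1xSRSF3 as those were. In 1xSRSF7 the replacement sum was higher without overlap (ratio 1.27), while the replication-dependent sum overlapped its control (1.08). In MYC-OE the replacement sum overlapped its control (1.01), while the replication-dependent sum was higher without overlap (1.39). H3-3B, which with H3-3A encodes the H3 variant H3.3 that is laid down outside replication, was lower in the first table and higher in the second. H3-3B was at 414, 399 and 392 CPM in 3XCTL, 359, 343 and 350 CPM in the libraries labelled 3XSR, and 333, 334 and 330 CPM in MYC-OE. In the second table it was at 266, 293 and 266 CPM in 1xCtrl, 368, 339 and 338 CPM in the libraries labelled 1xSRSF2, 405, 387 and 409 CPM in 1xSRSF3, and 319, 326 and 351 CPM in 1xSRSF7. No group overlapped its control. H3-3B fell by 0.20 ± 0.044 on the log2 scale in 3XSR (adjusted p = 0.00543) and by 0.27 ± 0.044 in MYC-OE (adjusted p = 0.000475). It rose by 0.34 ± 0.063 in 1xSRSF2 (adjusted p = 0.0018), 0.54 ± 0.063 in 1xSRSF3 (adjusted p = 4.04e-05) and 0.27 ± 0.063 in 1xSRSF7 (adjusted p = 0.0104). The 1xSRSF2 and 1xSRSF7 changes were 0.25 and 0.20 without 1xCtrl replicate 1 (adjusted p = 0.0561 and 0.14), and calls were also lost without 1xSRSF2 replicate 1 (0.25, adjusted p = 0.0543), without 1xCtrl replicate 3 (0.21 in 1xSRSF7, adjusted p = 0.0913) and without any 1 library of 1xSRSF7 (adjusted p of 0.0586 to 0.119). H3-3B shares exonic bases with UNK on the other strand and MIR4738 on its own. H3-3A rose by 0.42 ± 0.065 in 1xSRSF7 (adjusted p = 0.00118) and passed in no other comparison with a control. With the GC trend removed it passed in 3XSR (−0.18), MYC-OE (0.11) and 1xSRSF2 (0.20) as well (adjusted p = 0.00287, 0.0314 and 0.0252).

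H2AZ1, the main source of the H2A.Z variant found at promoters, rose by 0.34 ± 0.060 in 1xSRSF7 (adjusted p = 0.00239) and 0.20 ± 0.060 in 1xSRSF3 (adjusted p = 0.0233), and fell by 0.15 ± 0.049 on the log2 scale in 3XSR (adjusted p = 0.0347). The calls in 1xSRSF3 and 3XSR were each lost without single libraries: 0.10 without 1xSRSF3 replicate 3, 0.15 without 1xSRSF3 replicate 1, 0.11 and 0.16 without 1xCtrl replicates 1 and 3, and −0.15 without 3XSR replicate 2 or 3 (adjusted p up to 0.321 and 0.113). The 1xSRSF3 call was also lost with upper-quartile scaling (0.14, adjusted p = 0.133) or total counts alone (0.09, adjusted p = 0.296). It was lost too with no filter, the GC trend removed or only the 2 groups in the fit (adjusted p = 0.132, 0.0687 and 0.163). The 3XSR call was also lost with the replicate block or only the 2 groups (adjusted p = 0.0556 and 0.0811). H2AZ2, its paralog, passed in no comparison with a control (log2 changes from 0.05 to 0.11), except without 3XCTL replicate 2 (0.14 in 3XSR and 0.13 in MYC-OE, adjusted p = 0.0295 and 0.0483) and with the GC trend removed (0.10 in MYC-OE and 0.13 in 1xSRSF7, adjusted p = 0.0343 and 0.0251). H2AX, whose protein is phosphorylated at DNA breaks, stood at 44.1, 29.2 and 37.1 CPM in 3XCTL, 29.1, 30.1 and 26.9 CPM in the libraries labelled 3XSR, and 45.0, 41.7 and 48.9 CPM in MYC-OE. It passed in no comparison with a control, but was 0.66 higher in MYC-OE than in 3XSR (adjusted p = 0.00401). It did pass in 3XSR without 3XCTL replicate 2 (−0.50, adjusted p = 0.000479), and in MYC-OE without 3XCTL replicate 1 (0.45, adjusted p = 0.0116). DESeq2 called it in both (−0.36 and 0.30, adjusted p = 0.0153 and 0.0391). With the GC trend removed it passed in MYC-OE (0.16, adjusted p = 0.0293), 1xSRSF2 (0.53, adjusted p = 1.61e-05) and 1xSRSF7 (0.31, adjusted p = 0.00158). In 1xCtrl it was at 20.3, 38.2 and 17.8 CPM, with replicate 2 high as for H2BC12. Without that library its changes were 0.84, 0.29 and 0.90 in 1xSRSF2, 1xSRSF3 and 1xSRSF7, of which the first and last passed (adjusted p = 0.00646 and 0.0052).

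H1-10, a linker variant gene that overlaps an antisense gene, stood at 5.35, 12.5 and 3.66 CPM in 1xCtrl. Without replicate 2 its changes were 0.71, 0.56 and 1.41, and the last, in 1xSRSF7, passed (adjusted p = 0.0122), as it did with the GC trend removed (0.64, adjusted p = 0.00724). In the first table H1-10 was at 10.1, 5.12 and 8.29 CPM in 3XCTL and 13.2, 13.1 and 14.2 CPM in MYC-OE, and rose there by 0.78 ± 0.20 (adjusted p = 0.0129, or 0.052 with only the 2 groups in the fit). Without 3XCTL replicate 2 it was lower in 3XSR by the test (−0.41, adjusted p = 0.00237). The 3XCTL replicate with the lowest tailless RNA, replicate 2, was also the lowest of its group in H1-10, H2AX, H2BC12 and H1-2. Other groups differed. Replicate 3 of the libraries labelled 3XSR had the highest tailless RNA of its group and the lowest H2AX, H2BC12 and H1-2. Replicate 3 of 1xSRSF3 had the lowest tailless RNA of its group and the highest H2AX and H1-2. What tailless RNA has to do with these levels was not tested. Summed over the 7 replacement genes the ratio to the control was 0.943 in 3XSR, 1.01 in MYC-OE, 1.15 in 1xSRSF2, 1.19 in 1xSRSF3 and 1.27 in 1xSRSF7.

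**Figure D3:**
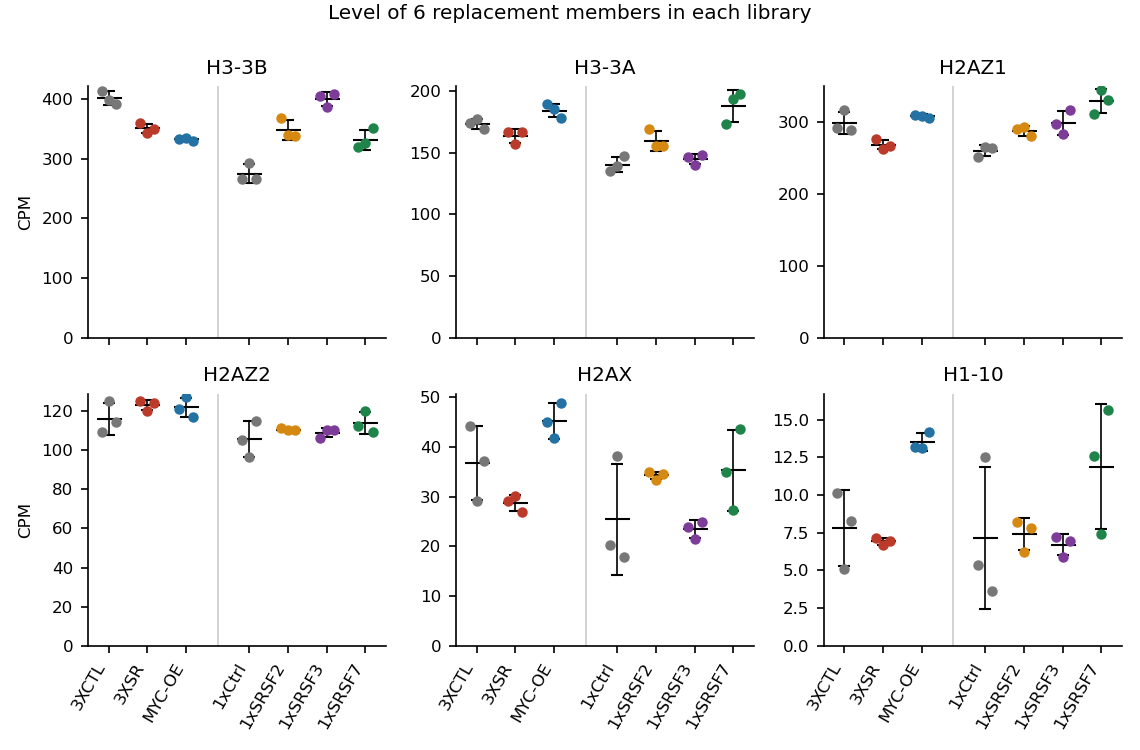
Level in CPM (y axis, from 0) of 6 replacement members in each library (points) of the 7 groups (x axis), with the mean (dash) and SD (bar) over 3 libraries, and a vertical line between the separately scaled tables. H3-3B lies under its control in 3XSR and MYC-OE and above it in the second table, and H2AX and H1-10 show the high 1xCtrl replicate 2.

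The replication-dependent members were also summed by whether an annotated transcript runs at least 100 bases past a matched stem-loop. Polyadenylation was not measured, and the members without such a transcript include some with long transcripts and no matched loop, such as H4C14 (1547 bases) and H4C15 (1694 bases). The 20 read-through members summed to 45.9, 45.3 and 45.2 CPM in 3XCTL, 68.6, 65.9 and 67.2 CPM in the libraries labelled 3XSR, and 59.0, 59.3 and 58.6 CPM in MYC-OE. In the second table they summed to 60.4, 56.9 and 63.4 CPM in 1xCtrl, 69.2, 72.6 and 70.1 CPM in the libraries labelled 1xSRSF2, 90.5, 87.4 and 86.4 CPM in 1xSRSF3, and 59.1, 60.1 and 58.7 CPM in 1xSRSF7. The order in the first table was 3XSR, MYC-OE and the control, and in the second 1xSRSF3, 1xSRSF2, and 1xSRSF7 together with the control. The ratios were 1.48, 1.30, 1.17, 1.46 and 0.985.

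The other 47 members summed to 39.0, 28.4 and 33.8 CPM in 3XCTL, 39.9, 40.6 and 38.3 CPM in the libraries labelled 3XSR, and 50.9, 51.1 and 50.9 CPM in MYC-OE. Here MYC-OE stood apart (ratio 1.51), and 3XSR overlapped its control (ratio 1.17). H2BC12 and H1-2, whose annotated transcripts hold no matched loop, are the largest parts of this sum. The 47 summed to 32.7, 45.9 and 30.3 CPM in 1xCtrl, 58.9, 49.5 and 54.9 CPM in 1xSRSF3, 45.7, 45.3 and 43.1 CPM in the libraries labelled 1xSRSF2, and 44.4, 41.2 and 49.2 CPM in 1xSRSF7. Of these only 1xSRSF3 lay above every control library (ratio 1.5), and 1xCtrl replicate 2 was high. Without that replicate the log2 ratio of the 47-member sum was 0.51 in 1xSRSF2, 0.79 in 1xSRSF3 and 0.51 in 1xSRSF7, against 0.30, 0.58 and 0.31 with it. By gene, 9 of 20 tested read-through members rose in 3XSR, 11 in MYC-OE, 4 in 1xSRSF2, 14 in 1xSRSF3 and 2 in 1xSRSF7. Of the others 4 and 8 of 32 tested rose in the first table, and 4, 6 and 0 of 38 in the second. Of all tested genes 15.3%, 18.0%, 11.6%, 15.0% and 9.03% were higher in the same order. The sets differ in level, and among members with at least 1 CPM 9, 10, 4, 12 and 2 of 16 read-through members rose in the 5 comparisons, beside 4, 6, 4, 5 and 0 of 7 others. The share of all genes at that level was not counted. The 2 sets also differ in base composition, with a median GC content of 47% in read-through members and 60% in the others, against 46.9% over all genes. The part of base composition in these sums was not tested.

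**Figure D4:**
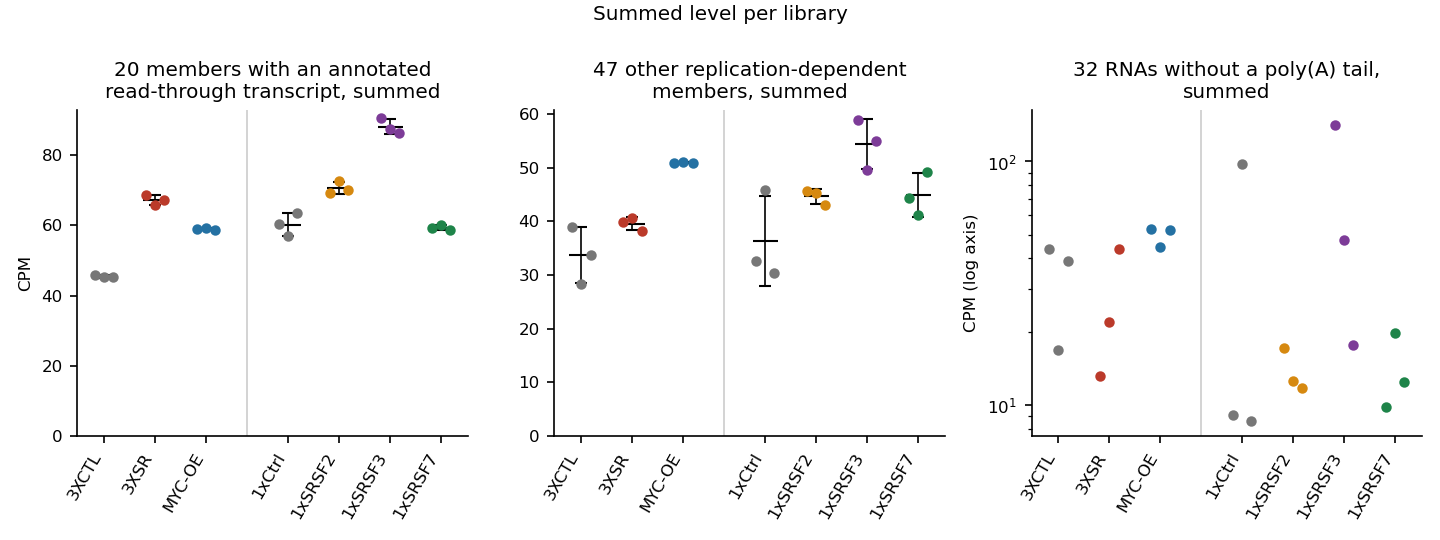
Summed CPM per library (points) of the 20 read-through members (left), the other 47 replication-dependent members (middle), both from 0 with the mean and SD over 3 libraries, and the 32 RNAs without a poly(A) tail (right, log axis), by group (x axis). The read-through sum lies at 65.9 to 68.6 CPM in 3XSR against 45.2 to 45.9 CPM in 3XCTL, and the tailless sum reaches 97.6 CPM in 1xCtrl replicate 2 and 141 CPM in 1xSRSF3 replicate 1.

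Many H2A and H2B genes face each other across a shared promoter. There were 12 divergent pairs of members under 1000 bases apart, 11 of them an H2A with an H2B gene. Both genes of H2BC4 and H2AC6 rose in 3XSR (0.87 and 0.83), MYC-OE (1.14 and 0.35) and 1xSRSF3 (1.08 and 0.62). Both of H2BC8 and H2AC8 (0.87 and 1.04) and both of H2BC11 and H2AC11 (0.44 and 0.66) rose in 1xSRSF3. The H2BC11 call was lost without 1xCtrl replicate 2 or 1xSRSF3 replicate 2 or 3 (adjusted p of 0.0528, 0.0549 and 0.0601). In other comparisons the same pairs split. H2BC8 was called without H2AC8 in 3XSR (0.54 and 0.16) and MYC-OE (0.59 and 0.41). H2AC11 was called without H2BC11 in MYC-OE (0.47 and 0.32) and 1xSRSF7 (0.40 and −0.01). H2AC6 was called without H2BC4 in 1xSRSF2 (0.31 and 0.30). In the pair of H2BC21 and H2AC20, H2BC21 rose by 1.03 in 3XSR, while H2AC20 stood at 0.0254 to 0.0559 CPM there and did not pass (−0.81 ± 0.60, adjusted p = 0.354). H2AC25 rose in 4 groups, and its partner H2BC26 in none.

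Over the 5 comparisons with a control, 33 of the 66 members tested were called in none. The 7 members H2AC6, H2AC25, H2BC5, H2BC21, H3C10, H4C14 and H4C15 rose in 4 comparisons and fell in none. Since comparisons in a table share their control, these are not independent. H4C14 and H4C15 can share reads, so they may be a single signal. The 1xSRSF2 call of each of the 7 was lost without at least 1 library. The share of all genes called as often was not counted. In the tests between groups, MYC-OE had 10 of 59 members higher and 4 lower than the libraries labelled 3XSR, beside 17.3% and 17.6% of all genes (34.9% in either direction). H2AC6 was lower in MYC-OE by 0.48 (log2 change −0.48, adjusted p = 0.000546). The count of 14 became 9 without 3XSR replicate 2, 8 without 3XSR replicate 3, and 7 and 9 without MYC-OE replicates 1 and 2.

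Between single factors, 19 of 66 members were higher in 1xSRSF3 than in 1xSRSF7 and 2 lower, beside 17.8% and 17.3% of all genes (35.2% in either direction). H2AC6 (0.62, adjusted p = 5.6e-05) and H4C8 were among the 19, and H3-3A (−0.38, adjusted p = 0.000554) was among those lower. The libraries labelled 1xSRSF2 had 14 members lower than 1xSRSF3 and 0 higher by edgeR (1 higher at an unadjusted p under 0.05), against 14.1% and 12.6% of all genes, a count that became 9 without 1xSRSF3 replicate 1. Against 1xSRSF7 they had 5 higher and 3 lower, with a background of 11.5% and 12.8%. These 8 calls became 4 without 1xSRSF2 replicate 2, and 5 without 1xSRSF2 replicate 3 or 1xSRSF7 replicate 2 or 3.

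Counts for the gene lists below can be read against all tested genes, of which 15.3% were higher and 13.7% lower in 3XSR, 18.0% and 17.3% in MYC-OE, 11.6% and 11.9% in 1xSRSF2, 15.0% and 14.1% in 1xSRSF3, and 9.03% and 8.26% in 1xSRSF7. Among 27 genes for factors that make and end histone messages, 2 rose and 2 fell in 3XSR, 2 and 9 in MYC-OE, 5 and 3 in 1xSRSF2, 11 and 1 in 1xSRSF3, and 2 and 4 in 1xSRSF7, with medians of −0.01, −0.10, 0.06, 0.20 and 0.04. SLBP, the stem-loop binding protein, stood at 31.9, 28.0 and 34.4 CPM in 1xCtrl and at 37.1 to 42.2 CPM in the single-factor groups. It rose by 0.28, 0.28 and 0.33 there (adjusted p = 0.0163, 0.0127 and 0.00858), and did not pass in 3XSR (−0.14) or MYC-OE (0.03). NPAT, the cyclin E-CDK2 substrate that drives histone transcription, rose by 0.22 in 3XSR (adjusted p = 0.0194) and passed in none of the other 4 comparisons. CASP8AP2, a partner of NPAT, fell by 0.26 on the log2 scale in MYC-OE and in 1xSRSF2 (adjusted p = 0.0225 and 0.028). E2F1 fell by 0.42 in 3XSR, 0.31 in MYC-OE and 0.41 in 1xSRSF3. LSM11, part of the U7 particle, fell by 0.39 in MYC-OE and in 1xSRSF2 and by 0.32 in 1xSRSF7. ZNF473, another factor of U7-dependent cleavage, rose by 0.55 in 1xSRSF3 and 0.31 in 1xSRSF2, and fell by 0.22 in MYC-OE and in 1xSRSF7.

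Of 30 chaperone and deposition genes, 1 rose and 7 fell in 3XSR, 4 and 7 in MYC-OE, 10 and 1 in 1xSRSF2, 13 and 1 in 1xSRSF3, and 9 and 0 in 1xSRSF7 by edgeR, with 1 lower there at an unadjusted p under 0.05. HAT1, which acetylates new H4, rose in all 5 comparisons (0.59, 0.80, 0.75, 0.71 and 0.43). ASF1B, a chaperone of new H3 and H4, was at 50.2, 48.9 and 47.8 CPM in 3XCTL and 26.6, 26.7 and 27.7 CPM in the libraries labelled 3XSR. It fell by 0.86 ± 0.048 on the log2 scale there (adjusted p = 1.52e-07), by 0.45 in MYC-OE and by 0.37 in 1xSRSF3, and rose by 0.27 in 1xSRSF7. The chaperones NPM1 and NCL rose in the 3 single-factor groups (0.50 and 0.45, 0.50 and 0.54, 0.30 and 0.23).

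Of 40 genes of S phase and replication, 2 rose and 14 fell in 3XSR and 3 and 9 in MYC-OE, while 12 and 2, 12 and 4, and 11 and 5 did so in 1xSRSF2, 1xSRSF3 and 1xSRSF7. Their medians were −0.14, −0.04, 0.05, 0.12 and 0.14. PCNA, the replication clamp, fell by 0.22 in 3XSR (adjusted p = 0.0283, with overlapping groups) and rose by 0.42 in 1xSRSF7 (adjusted p = 0.00258). Thymidine kinase TK1 fell by 0.60 in 3XSR, and cyclin E1 (CCNE1) rose by 0.33, 0.24, 0.71 and 0.71 in all groups but 1xSRSF7. Of 24 genes of G2 and M phase, 4 rose and 4 fell in 3XSR, 10 and 1 in MYC-OE, 8 and 0 in 1xSRSF2 (by edgeR, with 1 lower at an unadjusted p under 0.05), 5 and 1 in 1xSRSF3, and 4 and 1 in 1xSRSF7, and the mitotic kinase AURKA rose in every group but 1xSRSF7 (0.50, 0.67, 0.51 and 0.45).

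Of 15 genes of cell-cycle exit, 4 rose and 2 fell in 3XSR, 6 and 4 in MYC-OE, 1 and 1 in 1xSRSF2, 4 and 0 in 1xSRSF3, and 2 and 0 in 1xSRSF7. For the last 2 groups edgeR gave 1 and 0 lower at an unadjusted p under 0.05. CDKN1A, the CDK inhibitor p21, was at 18.4, 14.6 and 16.7 CPM in 3XCTL and 35.8, 33.8 and 35.1 CPM in the libraries labelled 3XSR. It rose in all 5 comparisons (1.08, 0.83, 1.10, 1.07 and 0.45). Of 12 histone variant genes outside the rule, 6 could be tested. By edgeR 0 rose and 1 fell in 3XSR, 1 and 1 in MYC-OE, 2 and 0 in 1xSRSF2, 1 and 0 in 1xSRSF3, and 1 and 0 in 1xSRSF7. The counts of 0 stayed 0 at an unadjusted p under 0.05. MACROH2A2, a macroH2A gene, fell by 0.98 in 3XSR and rose by 0.47 in 1xSRSF2 and 0.67 in 1xSRSF7. MACROH2A1 rose in 1xSRSF2 and 1xSRSF3, and in MYC-OE the called genes were H2AJ and H3-7. Of the 32 tailless RNAs, 12 were tested in the first table with none called by edgeR (3 lower in 3XSR and 2 in MYC-OE at an unadjusted p under 0.05), and 15 in the second with 1 higher in 1xSRSF3 and 1 lower in 1xSRSF7.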

How the data were processed

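The deposited values are whole-number estimated counts per gene, in 2 tables of 60668 genes. Per the submitters' processing notes, Trimmomatic 0.39, STAR, StringTie 2.1.3b and GRCh38.p13 were used by the authors; their roles, the annotation, the strand setting and whether a read pair counts once are not given in the sources used here. Per the labels' protocols, libraries were poly(A)-selected, stranded and read as pairs.

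Members were matched by symbol, and positions, exons and GC content come from GENCODE release 29 by identifier. Each table was fitted in R 4.3.3 with edgeR 4.0.16 over all its groups: filterByExpr (minimum count 10, total 15), TMM scaling, robust glmQLFit, the quasi-likelihood test without a block, and Benjamini-Hochberg adjustment over all tested genes at 0.05. All p-values are two-sided. TMM-scaled CPM are compared within a table only. Sums of CPM carry no test. The procedure was tested on simulated data. Depth, 143 to 303 mega-counts, gives the floors stated above.

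The members and gene lists were chosen with earlier results of these data known. 1 member that the rule names is not reported here. Genes are named by rule: the 12 members with the highest mean CPM, H2AX, H2AZ1, H2AZ2, H3-3A and H3-3B; per comparison with a control up to 5 highest and 5 lowest called members with at least 1 CPM and no overlap; SRSF2, SRSF3, SRSF7, MYC, SLBP, NPAT, CASP8AP2, ASF1B and PCNA; and up to 3 per list and comparison. Other members named (such as H2AC8, H2AC18, H2BC18, H3C8, H3C14 and H4C11) were chosen after their values were seen. Correlations of same-numbered libraries' deviations averaged between −0.107 and 0.0118 over comparisons, so the numbers do not pair them. Alternatives were RLE, upper-quartile or total-count scaling, other filters, DESeq2 1.42.0, summed copies, a GC offset, a replicate block, only the 2 groups compared, and leaving out each library; the read-through split and leaving out 1xCtrl replicate 2 with 1xSRSF3 replicate 1 were added after seeing the data. Figures were drawn with matplotlib 3.10.9.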

Additional observations from a re-analysis of the deposited data

How the results depend on the processing

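Counts of called members are given with the main value first. In 1xSRSF2 the 10 calls became 5 with no filter, 16 with the GC trend removed and 3 with only the 2 groups in the fit, and 4 to 16 when leaving out single libraries. In 1xSRSF3 the 22 became 14 under total counts alone and 13 with only the 2 groups, and 13 to 28 when leaving out single libraries. In 1xSRSF7 the 7 became 12 with the GC trend removed and 3 with only the 2 groups, and 3 to 15 when leaving out single libraries. The ranges were 14 to 22 in 3XSR, 18 to 22 in MYC-OE, 7 to 10 for MYC-OE against 3XSR, 9 to 12 for 1xSRSF2 against 1xSRSF3 and 4 to 7 for 1xSRSF2 against 1xSRSF7. The cause of these moves was not tested. Total counts alone moved the median of all genes in 1xSRSF3 to −0.136, and gave log2 ratios of sums there of 0.52 for H2A, 0.63 for H4, 0.45 for all replication-dependent, 0.44 for read-through and 0.14 for replacement members, and in MYC-OE of 0.34 for read-through and −0.02 for replacement members.

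Replicate numbers do not pair the libraries, so the replicate block is an alternative only. With the replicate block 14 members were higher and 2 lower in 3XSR, 21 and 2 in MYC-OE, 8 and 1 in 1xSRSF2, 22 and 0 in 1xSRSF3, and 6 and 0 in 1xSRSF7.

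Of 76 calls of single members reported here against a control, 33 fell above the threshold in at least 1 alternative and none changed sign. Of 36 results that had not passed, 22 passed in at least 1 alternative. Changes of sign occurred in 9 values that had not passed. With total counts alone these were H1-10 in 1xSRSF2 (−0.02), H2AZ2 (−0.06) and H3-3A (−0.07) in 1xSRSF3 and H3C6 in MYC-OE (−0.02). With upper-quartile scaling they were H2AZ2 (−0.02) and H3-3A (−0.02) in 1xSRSF3. With no filter they were H3-3A (−0.01) in 1xSRSF3 and H1-10 in 1xSRSF2 (−0.02, as with only the 2 groups). With the GC trend removed they were H1-10 (0.14) and H2BC12 (0.05) in 3XSR, and H1-10 (0.22), H2AX (0.10), H2AZ2 (−0.05) and H3-3A (−0.09) in 1xSRSF3. Without both 1xCtrl replicate 2 and 1xSRSF3 replicate 1 they were H1-10 (0.50), H2AX (0.28) and H2AZ2 (−0.01) in 1xSRSF3. Leaving out single libraries gave −0.32 to 0.71 for H1-10 in 1xSRSF2, −0.47 to 0.56 for H1-10, −0.38 to 0.29 for H2AX, −0.03 to 0.07 for H2AZ2 and −0.05 to 0.03 for H3-3A in 1xSRSF3, −0.41 to 0.03 for H1-10 in 3XSR, −0.03 to 0.05 for H3C6 in MYC-OE and −0.05 to 0.09 for H2BC9 in 1xSRSF7.

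Limits: poly(A) selection leaves the tailless stem-loop messages mostly uncounted, and 44 of 67 replication-dependent members average under 1 CPM. Copies such as H4C14 and H4C15 can share reads, which was not measured. Levels in 1xCtrl replicate 2 stand apart for H2BC12, H2AX and H1-10.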

Other observations

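2 of the rows left out of the membership as not protein-coding are H2B pseudogenes with levels above those of nearly every replication-dependent gene. H2BC20P averaged 14, 13.2 and 12.3 CPM in 3XCTL, the libraries labelled 3XSR and MYC-OE, and 16, 13.1, 15.7 and 14 CPM in 1xCtrl, the libraries labelled 1xSRSF2, 1xSRSF3 and 1xSRSF7. H2BC19P averaged 11.7, 10.6 and 10.7 CPM in the first table and 13.5, 11.9, 13 and 10.7 CPM in the second. Their levels were not tested between groups. How reads were divided between these pseudogenes and the H2B genes was not tested.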
